A study of Mus musculus with 2 samples.

Results

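The genes described here are 41 members of the nuclear receptor family, the transcription factors that bind steroid and thyroid hormones, retinoids, bile acids, fatty acids and oxysterols, together with their relatives without a known ligand. A CpG cytosine was taken for a receptor when it lay inside the gene's RefSeq span or within 5 kb of either end and had at least 10 reads in both libraries. All 41 receptors held at least 1 such cytosine, and together they held 6101 of the 1603296 autosomal cytosines read in both libraries. Genomic DNA came from the liver of CD-1 mice, an outbred stock, at 12 weeks of age on standard chow. Control mice were untreated, and the other mice had gone 12 hr without food. Each group was 1 library, the number of mice behind a library is not given in the sources used here, and all values are those of single libraries. Every test on reads compared the 2 libraries and not the conditions, with no measure of how animals vary.

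Most nuclear receptors sit on DNA at the gene they control and switch between holding co-repressors and recruiting co-activators when a ligand binds. Many of the lipid and xenobiotic sensors work as pairs with a retinoid X receptor, whereas the steroid receptors bind as pairs of themselves. In liver the family is known for the control of bile acid, cholesterol, glucose and drug metabolism, including the response to feeding and fasting. Methylation of CpG cytosines at a gene's start is usually low where the start lies in a CpG-rich stretch, and methylation of the gene's interior is usually high.

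The assay, reduced representation bisulfite sequencing, reads cytosines near the cutting sites of MspI (CCGG) and TaqαI (TCGA), and a methylation level is the percent of reads at a cytosine that stayed unconverted. Receptor cytosines had a median of 18 reads in the control library and 19 after the fast, with a range of 10 to 80 in both. Among receptor cytosines with 30 to 49 reads and a level of 20 to 80%, both the methylated and the total count were even at 48.3% of 87 cytosines in the control library and at 59.3% of 81 after the fast. Some reads thus seem to have been counted as pairs, which makes the intervals and p-values, limited to counting error, smaller than they should be. RNA was not measured, so the labelled tissue could not be checked by expression, and of the hepatocyte markers only 2 starts were measured. Apob, the main protein of secreted lipoprotein particles, stood at 13.1% in the control and 9.06% after the fast, and the fibrinogen gene Fgb at 21.3% and 19.5%. Of 14 markers of other liver cells, 5 were measured at the start or at a gene end, between 1.53% for the endothelial gene Kdr and 14.7% for the stellate cell gene Des in the control library. The shift of these 5 markers had a median of -0.223 points, and none was called, against 1.26% of all genes. In whole tissue a changed share of cell types and changed methylation within a type cannot be told apart.

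Receptor genes were poorly methylated at their starts and held much of their methylation inside the gene. The start window ran from 1000 bp before to 500 bp after the most upstream start listed for the gene in RefSeq. It held at least 5 cytosines in 28 of the 37 receptors with a listed start, and all 28 stood below 5% in the control library and below 10% after the fast. Their median was 0.897% in the control and 1.09% after the fast, beside 0.947% and 1.02% over 12172 genes, of which 86.1% were below 10%. The receptor with the highest measured start in the control library was Esr1, at 3.95%, and the lowest was Ppard, at 0.184%. For 4 receptors with no listed start, Nr3c1, Nr5a1, Thra and Hnf4g, the gene end with more cytosines was used, and it is called a gene end throughout because it may not be where transcription begins.

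The plot of levels by gene shows the start and the body of each receptor where they were measured. Gene bodies were taken as the gene outside its start windows, or outside the gene end where no start is listed. They were measured in 40 receptors and had a median of 50.1% in the control and 48.3% after the fast, beside 65.5% in both over 19071 genes. They ran from 1.59% for Pgr to 95.1% for Nr1h2.

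**Figure D1:**
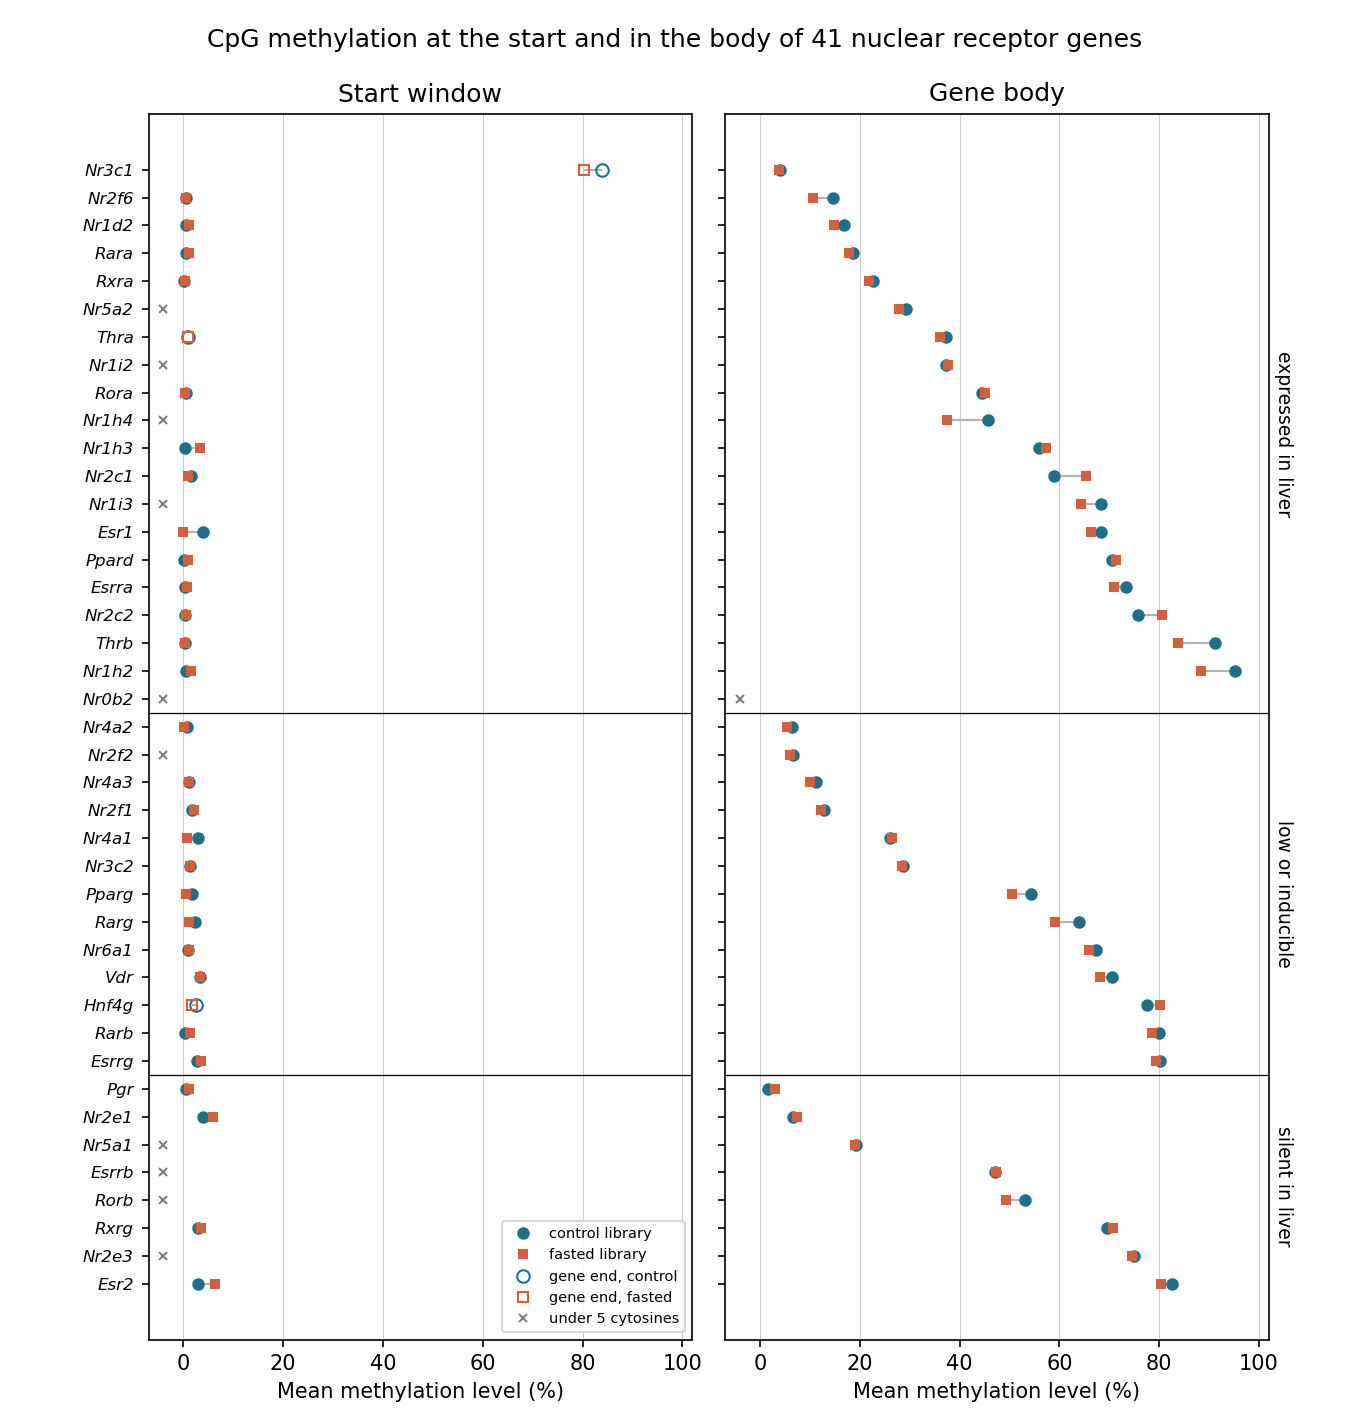
Mean methylation level (percent, horizontal axis) of the start window (left) and the gene body (right) of the 41 receptors, 1 row a gene, grouped by whether liver is known to express them; blue circles are the control library, orange squares the fasted library, open symbols a gene end, and crosses fewer than 5 cytosines. The 28 listed starts lie below 10% in both libraries, while bodies spread from 1.59% to 95.1% in the control library.

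The number of CpG before the start varied widely among receptors. The 250 bases before the first listed start held a median of 13 CpG in the 37 receptors and 6 over 25748 genes, and 62.2% of receptors and 38.9% of all genes held at least 10. Rxra, the retinoid X receptor of hepatocytes, and Pgr, the progesterone receptor, are printed because they lie far apart in CpG number, 40 against 4, yet both were nearly unmethylated. The bases are RefSeq's, assembly GRCm38.p6, read 5′ to 3′ on the gene's strand with each CpG in capitals, for Rxra chr2:27676951-27677200 on the plus strand and for Pgr chr9:8899583-8899832 on the plus strand.
Rxra: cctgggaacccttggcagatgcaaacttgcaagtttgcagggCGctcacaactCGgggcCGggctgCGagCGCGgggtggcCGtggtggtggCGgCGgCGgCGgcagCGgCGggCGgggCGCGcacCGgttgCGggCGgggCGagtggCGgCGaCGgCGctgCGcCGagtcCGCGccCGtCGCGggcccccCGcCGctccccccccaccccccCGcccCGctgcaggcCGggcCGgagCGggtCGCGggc
Pgr: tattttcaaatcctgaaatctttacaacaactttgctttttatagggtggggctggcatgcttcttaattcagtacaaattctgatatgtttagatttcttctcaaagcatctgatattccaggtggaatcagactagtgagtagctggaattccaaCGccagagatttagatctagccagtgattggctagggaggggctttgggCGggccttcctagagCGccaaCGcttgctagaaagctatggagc
The Rxra start stood at 0.205% in the control and 0.367% after the fast over 105 cytosines. The Pgr start stood at 0.431% and 1.18% over 8 cytosines, all of them downstream of the printed bases. Over all genes with 0 to 4 CpG in these bases, the start could be measured in 7.95%, and 40.5% of those were below 10%. Of 9 receptors in that class, 3 could be measured, and all 3 were below 10%. Among the 11 receptors with at least 20 CpG, all 11 were measured and below 10%, beside 98.3% of all genes measured in that class.

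Of the remaining starts, 6 held no cytosine and 3 held 1 to 4. Nr0b2, Nr1h4 and Nr2e3 are printed as examples of promoters that hold neither a CCGG nor a TCGA, the sites the assay cuts at. Their positions are chr4:133553126-133553375 on the plus strand, chr10:89506659-89506908 on the minus strand and chr9:59950080-59950329 on the minus strand, with CpG in capitals.
Nr0b2: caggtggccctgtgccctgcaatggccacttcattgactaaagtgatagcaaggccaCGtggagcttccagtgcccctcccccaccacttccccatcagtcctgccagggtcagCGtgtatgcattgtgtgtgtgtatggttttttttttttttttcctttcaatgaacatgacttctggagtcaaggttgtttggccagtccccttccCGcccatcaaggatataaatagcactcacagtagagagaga
Nr1h4: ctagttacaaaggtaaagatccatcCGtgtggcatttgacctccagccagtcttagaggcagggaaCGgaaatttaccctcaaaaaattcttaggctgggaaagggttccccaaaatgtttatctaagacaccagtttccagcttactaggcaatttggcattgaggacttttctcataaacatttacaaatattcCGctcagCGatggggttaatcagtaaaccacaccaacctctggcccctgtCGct
Nr2e3: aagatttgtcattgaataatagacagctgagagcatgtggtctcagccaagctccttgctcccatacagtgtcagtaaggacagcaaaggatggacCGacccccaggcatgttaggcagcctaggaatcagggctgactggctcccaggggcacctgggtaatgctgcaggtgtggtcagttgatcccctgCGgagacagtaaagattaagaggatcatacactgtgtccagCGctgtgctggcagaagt
These stretches hold 3, 5 and 3 CpG. One of the 2 strings CCGG and TCGA, each the same on both strands, was present before the start in 29 of 37 receptors (78.4%) and 55.1% of all genes. Nr1i2, Nr1i3 and Nr2f2 also lacked both and had 0 to 2 cytosines in the start window. Nr6a1 and Pgr lacked both there too and were still measured within the wider window, while Rorb, Nr5a2 and Esrrb held 1 or 2 such sites and no cytosine. The receptor half-site AGGTCA, searched on both strands, lay in the 250 bases of 6 of the 37 receptors (16.2%) and of 13.8% of all genes. That match is a description of letters and not of a bound site.

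At the first listed start, liver-expressed and liver-silent receptors with at least 5 cytosines there all stood below 10%. Which receptors liver expresses was taken from textbook knowledge, since no RNA was measured. The 13 measured starts of liver-expressed receptors had a median of 0.457% in the control and 0.630% after the fast. The 11 measured starts of receptors that are low or inducible in liver had medians of 1.70% and 1.13%. Only 4 silent receptors had a measured start, Pgr, Esr2, Rxrg and Nr2e1, and all 4 were higher in the fasted library. So were 10 of the 13 expressed and 5 of the 11 low or inducible starts, beside 6157 of 12172 over all genes. The medians of the 4 silent starts were 2.91% in the control and 4.73% after the fast. The median control level of the silent class was thus 2.45 points above that of the expressed class, with 4 genes behind it and no test, since genes are not replicates. With a window of 2000 bp on each side the distance was 7.05 points (2.97% against 10.02%), and 13 of 14 expressed but 3 of 6 silent starts were below 10%. The medians of gene bodies in the control library were 45.7% for expressed, 54.3% for low or inducible and 50.1% for silent receptors.

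Among first listed starts and gene ends, those that were methylated rested on few cytosines. Nr2e3, a receptor of photoreceptor cells, held 4 cytosines at 90.4% in the control and 92.3% after the fast, or 47 of 52 and 48 of 52 reads. Nr1i3, the constitutive androstane receptor of hepatocytes, held 2 cytosines at 25% and 21.7%, from 11 of 44 and 10 of 46 reads. At gene ends, Nr3c1 stood at 83.8% and 80.4% over 8 cytosines, and Nr5a1 at 100% and 89.6% over 4. In all 4 genes the counting interval of the difference held 0, at -9.89 to 13.7, -21.0 to 14.5, -12.9 to 5.92 and -21.9 to 1.06 points. Some later listed starts were methylated over more cytosines. The second start of Esrrg stood at 33.6% and 36.0% over 17, and that of Esr1 at 21.6% and 13.8% over 10.

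Among the lipid and bile acid sensors, the oxysterol receptors Nr1h2 and Nr1h3 were measured best. The Nr1h3 start (liver X receptor alpha) stood at 0.358% in the control, 3 of 598 reads, and at 3.37% after the fast, 20 of 736 reads, over 26 cytosines. Of these, 11 were higher and 3 lower in the fasted library, and the difference of 3.01 points (0.740 to 5.29) had an adjusted p of 0.0387 by Fisher's exact test, below the 10 points asked for a call. It was the only measured receptor start with an adjusted p under 0.05, beside 6.46% of the 17205 gene starts and ends tested. Of the 103 cytosines of the Nr1h3 span, 52 lie in the neighbouring genes Acp2, Madd or Gm23390. Nr1h2 (liver X receptor beta) started at 0.487% and 1.45% over 24 cytosines. Its body was the most methylated of the family, at 95.1% in the control and 88.4% after the fast over 32 cytosines, 20 lower and 5 higher. That body difference of -6.71 points had an adjusted p of 7.72e-05 by Fisher's exact test and stayed under 10 points.

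Nr1h4, the bile acid receptor, had no cytosine in its start window and 34 in its span, all inside the gene. They averaged 45.7% in the control and 37.6% after the fast, with 22 lower and 9 higher. The difference of -8.16 points (-13.6 to -2.76) was the furthest from 0 of all 41 spans, and its adjusted p was 0.135 by Fisher's exact test. Nr1i2, the pregnane X receptor, held 17 cytosines at 37.4% and 37.7%. Nr1i3 held 15 body cytosines at 68.2% and 64.2%. Nr0b2, which lacks a DNA-binding domain and represses other receptors, held 11 span cytosines at 14.9% and 12.4%, of which the 4 at the start stood at 4.24% and 11.2%, with an interval of the difference from -1.07 to 14.9 points. For these 4 sensors the intervals were wide and 3 of the 4 held 0, so differences of several points were not detectable at this depth in Nr1i2, Nr1i3 and Nr0b2.

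The fatty acid receptors were unlike each other. Ppard, the broadly expressed member, started at 0.184% and 0.859% over 32 cytosines and had a body at 70.6% and 71.4%. Pparg, the adipocyte form that liver holds at a low level, started at 1.81% and 0.478% over 33 cytosines. Its second listed start, 1205 bp downstream with a window that overlaps the first, stood at 4.92% in the control, 73 of 1330 reads, and at 1.65% after the fast, 27 of 1528 reads, over 60 cytosines, with 24 lower and 8 higher. The interval of that difference ran from -5.07 to -1.47 points. Over the whole Pparg span of 102 cytosines the levels were 14.1% and 11.1%, with 42 lower and 14 higher and an adjusted p of 0.00222 by Fisher's exact test, for a difference of -3.03 points that is far from the 10 points asked for. Nr5a2, an activator of bile acid synthesis genes in liver, had no cytosine at its first start and 7 at its second, at 8.30% and 4.59%, and a body at 29.2% and 27.8% over 156 cytosines.

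The retinoid receptors and their partners stood below 5% at every measured first start. Rara, Rarb and Rarg, the receptors of retinoic acid, started at 0.568%, 0.312% and 2.24% in the control and at 1.05%, 1.31% and 1.13% after the fast. Their bodies differed more from each other than between libraries: Rara stood at 18.7% and 17.9%, Rarg at 64.0% and 59.1%, and Rarb at 79.9% and 78.5%. Without 4 Rarb cytosines that went to 0, described below with the single cytosines, the Rarb body stood at 79.4% and 82.6%, so its difference turned to 3.19 points. Rxra kept a body of 22.6% and 21.8%, and the muscle and brain form Rxrg one of 69.5% and 70.7% with a start of 2.94% and 3.45%. The Rxra gene carried a run of low cytosines, a running mean of 5 below 20%, that covered 5352 bp around its start, against 240 bp in Rxrg.

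The thyroid hormone receptors had the same kind of start and unlike bodies. The start of Thrb, the main thyroid hormone receptor of liver, stood at 0.271% and 0.382% over 68 cytosines, and the Thra gene end at 0.877% in both libraries over 12. The Thrb body stood at 91.3% in the control and 83.8% after the fast over 21 cytosines, with 12 lower and 6 higher. Its difference of -7.41 points had an adjusted p of 0.0143 by Fisher's exact test, and without 1 cytosine that went from 100% to 0% the other 20 differed by -2.79 points. The Thra body stood at 37.2% and 36.2% over 38 cytosines, and 24 of the 71 span cytosines lie in Nr1d1, which overlaps it. Vdr, the vitamin D receptor, which hepatocytes hardly express, started at 3.41% and 3.32% and had a body of 70.5% and 68.1%.

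Among the steroid receptors, listed starts were low in expressed and silent genes alike, apart from the second start of Esr1. Esr1, the estrogen receptor that hepatocytes express, has 2 listed starts, printed because they differed in level. They lie at chr10:4611739-4611988 and chr10:4709908-4710157, both on the plus strand, with CpG in capitals.
Esr1 first start: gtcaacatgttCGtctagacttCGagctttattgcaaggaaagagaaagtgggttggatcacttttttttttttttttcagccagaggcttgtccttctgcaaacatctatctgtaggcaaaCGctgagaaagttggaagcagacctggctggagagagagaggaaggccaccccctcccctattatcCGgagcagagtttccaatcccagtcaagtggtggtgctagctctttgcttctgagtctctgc
Esr1 second start: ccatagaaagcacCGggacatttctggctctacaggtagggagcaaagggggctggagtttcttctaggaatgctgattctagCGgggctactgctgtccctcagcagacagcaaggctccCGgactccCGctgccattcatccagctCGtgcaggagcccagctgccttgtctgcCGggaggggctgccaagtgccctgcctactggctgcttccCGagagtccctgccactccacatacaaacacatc
With 4 and 7 CpG, both are CpG-poor. The first start stood at 3.95% in the control and 0% after the fast over 6 cytosines, 5 of 141 and 0 of 117 reads, with an interval of the difference from -8.96 to 1.06 points. The second stood at 21.6% and 13.8% over 10 cytosines, 41 of 189 and 34 of 246 reads, with 8 lower and 2 higher and an interval of the difference from -15.7 to 0.0668 points. The Esr1 body was at 68.3% and 66.3% over 139 cytosines. Esr2, the other estrogen receptor, silent in liver, started at 2.87%, 18 of 604 reads, and 6.36%, 49 of 800 reads, over 27 cytosines, 16 higher and 3 lower. The interval of that start difference was 0.806 to 6.17 points and the adjusted p 0.0857 by Fisher's exact test. Its body was at 82.5% and 80.4%.

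Pgr and Nr3c1 were low through the bodies that were read. All 110 cytosines of the Pgr span lay in 1742 bp downstream of its start, at 1.51% in the control and 2.79% after the fast, with a body of 1.59% and 2.91%. The single-cytosine maps show them near 0 in both libraries, at most at 25%. Nr3c1, the glucocorticoid receptor, which drives fasting genes in liver, had a body of 4.07% and 3.91% over 140 cytosines. The mean difference was only -0.167 points (-1.40 to 1.07), and Fisher's exact test on the summed reads gave an adjusted p of 0.0431. No start is listed for Nr3c1, so its body is the gene outside a gene end and may hold the place where transcription begins. Nr3c2, the mineralocorticoid receptor, started at 1.23% and 1.41% and had a body of 28.7% and 28.4% over 172 cytosines.

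Of the estrogen-related receptors, which act in energy metabolism and are named for their likeness to the estrogen receptors, Esrra started at 0.286% and 0.630% over 65 cytosines, with a body of 73.4% and 70.9%. Of its 287 span cytosines, 212 lie inside other genes, Prdx5, Trmt112, Kcnk4 and Catsperz among them. Such overlap was not limited to Esrra. It took in 136 of 186 span cytosines in Nr2f1, 68 of 89 in Thrb and 173 of 440 in Esrrg. In Nr3c2 it was 89 of 210, in Nr2f6 68 of 262 and in Nr2c1 29 of 116, among others. Esrrg has 4 listed starts, at 2.69%, 33.6%, 7.11% and 1.25% in the control and 3.42%, 36.0%, 9.39% and 0.529% after the fast in their order along the gene, where the windows of the second and the third overlap. The second start was thus the most methylated of the 4 in both libraries. Its body was at 80.1% and 79.3% over 274 cytosines. The span of 440 cytosines differed by -0.573 points (-1.61 to 0.467). Fisher's exact test on the reads summed over all of them gave an adjusted p of 0.000563. Esrrb, a gene of stem cells, had no cytosine at its first start and 31 at its second, at 1.15% and 1.25%, and a body of 47.1% and 47.3%.

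The clock receptors were low at the start and unlike inside. Nr1d2, a heme-binding repressor, started at 0.550% and 1.10% over 65 cytosines and had a body of 16.9% and 14.9%, with 26 lower and 8 higher of 75. Rora, the activator at the same response elements, started at 0.586% and 0.250%. Its body stood at 44.5% and 45.1% over 416 cytosines, the most of any receptor. The body difference of 0.565 points had an interval from -0.384 to 1.51, with 131 cytosines higher and 129 lower. Fisher's exact test on the summed reads, which weighs reads and not cytosines, gave an adjusted p of 2.93e-05. Rorb, the relative of Rora in brain and retina, is printed because its promoter is CpG-rich and still went unread. It lies at chr19:19111197-19111446 on the minus strand, with CpG in capitals.
Rorb: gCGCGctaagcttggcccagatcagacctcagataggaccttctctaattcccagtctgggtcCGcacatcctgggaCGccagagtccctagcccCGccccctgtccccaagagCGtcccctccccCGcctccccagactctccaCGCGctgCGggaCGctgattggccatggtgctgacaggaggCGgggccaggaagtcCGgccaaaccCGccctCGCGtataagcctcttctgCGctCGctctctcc
It holds 18 CpG and a single CCGG, and no cytosine of the start window had 10 reads in both libraries. The Rorb body stood at 53.2% and 49.3% over 85 cytosines, with 43 lower and 25 higher, an interval of the difference from -6.48 to -1.37 points and an adjusted p of 0.866 by Fisher's exact test.

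Among receptors where a run of low cytosines was found, it was longest in Nr2e1. This gene, a receptor of neural stem cells, had a run of 8835 bp that took in 179 of its 183 cytosines. It started at 3.83% and 6.01% over 52 cytosines, with a body of 6.55% and 7.36%. Nr2f1 and Nr2f2, which act in the patterning of the embryo and its vessels, had bodies of 12.8% and 12.2% and of 6.67% and 6.08%, over 56 and 283 cytosines. The Nr2f1 start was at 1.70% and 2.13% with a run of 4542 bp, and the Nr2f2 start was not read. Their relative Nr2f6, expressed in liver, started at 0.457% and 0.576% over 127 cytosines with a run of 2046 bp and had a body of 14.7% and 10.6%. The immediate-early genes Nr4a1, Nr4a2 and Nr4a3 started at 2.87%, 0.785% and 1.20% in the control and at 0.686%, 0.116% and 1.12% after the fast. Their bodies were at 26.1%, 6.31% and 11.1% in the control and 26.4%, 5.51% and 10.1% after the fast. The run in Nr4a3 covered 5742 bp.

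Among the other orphan receptors, Nr2c1 and Nr2c2, both broadly expressed, started at 1.56% and 0.921% and at 0.335% and 0.591%. The Nr2c1 body stood at 58.9% in the control and 65.4% after the fast over 29 cytosines, with 17 higher and 8 lower, the furthest above 0 of all bodies at 6.55 points (1.38 to 11.7) and with an adjusted p of 0.0620 by Fisher's exact test. The Nr2c2 body was at 75.8% and 80.6%. Nr6a1, a germ cell receptor, started at 1.01% and 1.08% and had a body of 67.3% and 65.9%. The steroidogenic factor gene Nr5a1, whose span overlaps that of Nr6a1, had a body of 19.2% and 19%. Hnf4g, a relative of the main hepatocyte nuclear factor, had a gene end of 2.57% and 1.72% and a body of 77.5% and 80.1%. The Nr2e3 body stood at 74.8% and 74.5%.

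By the mean of gene means, receptors stood below all genes in each of 10 classes of distance from the start, in both libraries. By the median of gene means they stood above in the first 0.5 kb after the start, at 1.19% beside 0.804% in the control and 1.16% beside 0.879% after the fast. From 2 to 5 kb after the start the mean of gene means was 49.02% in the control library over 21 receptors and 66.2% over 7597 genes. From 0.5 to 1 kb before it the values were 2.33% over 11 receptors and 26.7% over 4929 genes. The profile by distance also shows that receptors low or inducible in liver stood at 4.97% in the control from 1 to 2 kb after the start over 3 genes, against 19.95% over 8 expressed and 31.7% over 5 silent genes. These bins hold few genes and different genes each, and no test was made of them.

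**Figure D2:**
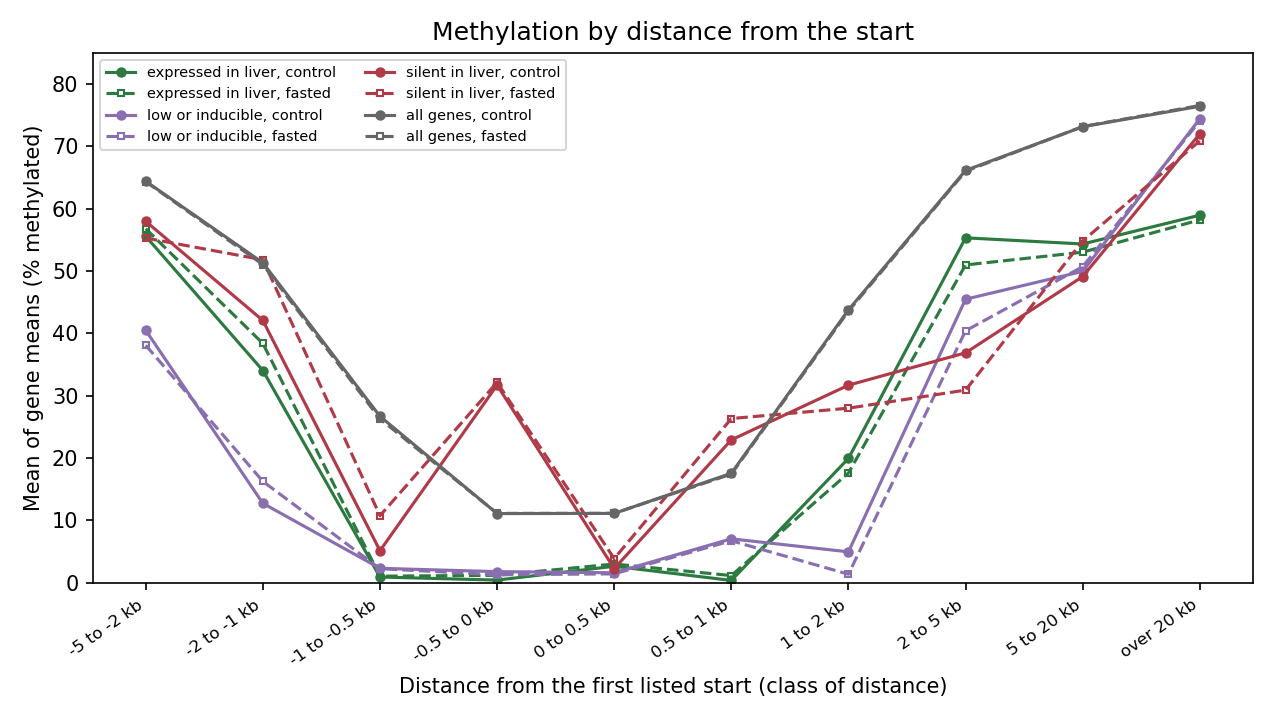
Mean of gene means (percent methylated, vertical axis) in 10 classes of distance from the first listed start (horizontal axis), for 3 receptor classes and all genes, filled circles and solid lines for the control library and open squares and dashed lines for the fasted library. Expressed and low or inducible receptors stay below 5% from 1 kb before to 0.5 kb after the start; the rise of the silent class to 31.7% just before the start rests on 3 genes, of which Nr2e3 is one.

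No receptor passed both thresholds for a difference between the libraries, an adjusted p under 0.05 and at least 10 points. Of the 31 starts and gene ends 0 were called, beside 1.26% of all genes, of 40 bodies 0, beside 1.64%, and of 41 spans 0, beside 1.37%. At these shares fewer than 1 receptor of each kind would be called, so the counts of 0 do not set the family apart. By the same Fisher's exact test an unadjusted p under 0.05 was reached by 8 of 31 starts and gene ends, 14 of 40 bodies and 12 of 41 spans. Over all genes the shares were 18.8%, 20.6% and 24.3%. An adjusted p under 0.05 at any size of difference was reached by 1 of 31 starts and gene ends, 5 of 40 bodies and 4 of 41 spans. Over all genes the shares were 6.46%, 8.29% and 11.9%. All 31 starts, 36 of 40 bodies and 40 of 41 spans differed by less than 5 points. More spans were lower than higher in the fasted library, 28 against 13, with a median of -0.436 points, beside 15354 lower and 15226 higher of all 30599 spans with a median of -0.0057. Bodies also leaned lower, 28 against 12, beside 9490 lower and 9539 higher over all genes. Listed starts leaned the other way, 19 higher against 9 lower, beside 6157 higher and 5897 lower over all genes.

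The spans furthest below 0 with at least 20 cytosines were Nr1h4 at -8.16, Rorb at -3.48, Pparg at -3.03, Nr1h2 at -2.38 and Esr1 at -2.38 points. Those furthest above 0 were Esr2 at 2.80, Nr2c1 at 1.66, Rxrg at 1.54, Pgr at 1.28 and Nr2e1 at 1.08 points, of which only the interval of Nr2c1, 0.109 to 3.20, left out 0. Of the 8 receptors silent in liver 5 were higher and 3 lower. At a minimum of 20 reads Nr1h2 turned to 0.924 over 8 cytosines and Nr2c1 to -0.845 points over 43, while Esr1 stood at -6.81 over 49 with an adjusted p of 0.00758 by Fisher's exact test and Nr1h4 had too few cytosines. Without the flanks Esr2 stood at 0.137 and Nr2c1 at 3.22 points, the latter with an adjusted p of 0.0037 by Fisher's exact test.

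**Figure D3:**
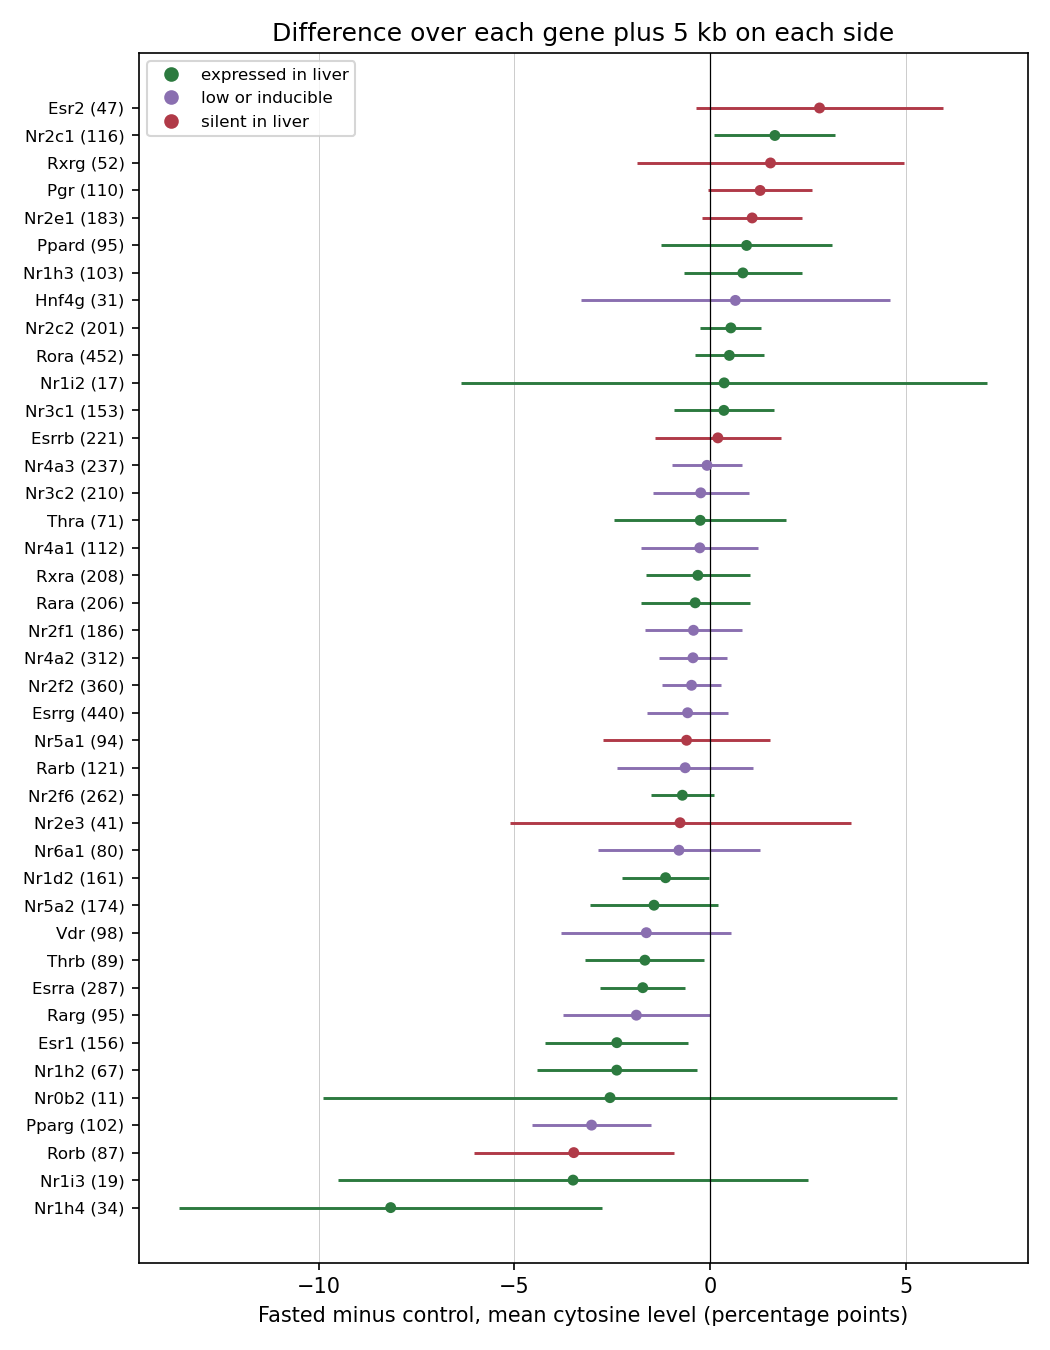
Fasted minus control difference (percentage points, horizontal axis) of the mean cytosine level over each gene plus 5 kb on each side, with 95% counting intervals, 1 row a receptor and its number of cytosines in brackets, coloured by expression class. Most points lie between -5 and 5; Nr1h4 at -8.16 stands lowest and Esr2 at 2.80 highest.

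Over all receptor cytosines the mean level was 24.7% in the control and 24.3% after the fast, a difference of -0.470 points (-0.705 to -0.235), beside 0.0808 over all autosomal cytosines. In all, 1596 cytosines were higher, 1760 lower and 2745 equal. With each read in place of each cytosine given equal weight the sign turned, to 20.3% and 20.5%, a difference of 0.187 points. In the control library 63.2% of receptor cytosines were below 10%, beside 52.9% of all cytosines, and 17.5% were at 80% or more, beside 27.4%.

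The lower values lay mostly in cytosines of intermediate level. The 796 receptor cytosines whose mean over both libraries was 10 to 60% averaged 29.3% in the control and 26.2% after the fast, -3.09 points, beside -0.686 points over 180158 such cytosines of the whole genome. Of these receptor cytosines 450 were lower and 334 higher, and of 22 receptors with at least 10 of them 17 were lower. As examples chosen after their values were seen, Nr5a2 stood at 27.1% and 22.8% over 64 and Esr1 at 33.9% and 26.2% over 46, while Esrrg stood at 28.9% and 29.5% over 54. Outside the windows described next, 735 cytosines differed by -1.45 points. Below 10% the receptor difference was -0.0309 points, beside 0.00894 over all cytosines. From 60 to 90% it was 0.0136, beside 0.818, and from 90 to 100% it was -0.404, beside 0.0781. A cytosine at 100% in one library and 0% in the other falls at 50% by construction, so the class of 40 to 60%, at -7 points over 195 cytosines, holds such cytosines too.

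Single cytosines that differed were few and mostly went to 0 in the fasted library. Of the 6101 receptor cytosines 9 passed an adjusted p under 0.05 and 25 points, or 0.148%, beside 0.082% of all cytosines, and 8 of the 9 were lower and 1 higher in the fasted library, beside 0.0372% and 0.0448% of all cytosines. They lay in 5 genes. No genotype of these outbred mice is given in the sources used here. A different base and a different methylation level at a cytosine thus cannot be told apart from these counts. In Rarb, the position 14:16721878 had 32 of 32 methylated reads in the control and 0 of 22 after the fast, with an adjusted p of 5.01e-11 by Fisher's exact test. Its neighbour at 14:16721866, 12 bases away, had 28 of 32 and 0 of 22. Both lie inside the RefSeq gene but at -146402 and -146390 bp from the listed start, which is upstream of it. The 5 other cytosines within 50 bp of 16721878 averaged 90% and 70.9%, a set that includes that neighbour. Further upstream in Rarb, inside the overlapping locus Tpi-rs9, 14:16947085 had 11 of 13 and 0 of 13 reads and 14:16947164 had 16 of 18 and 0 of 23. The opposite strand of 14:16947085 had 11 of 11 reads in the control and 0 of 3 after the fast. That of 14:16947164 had 27 of 29 in the control and no read after the fast. For 14:16721866 and 14:16721878 no opposite-strand read was listed.

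In the other genes a pair of cytosines and 3 single ones were called. In Nr5a2, 1:136912459 had 13 of 31 methylated reads in the control and 0 of 32 after the fast, and 1:136912468 had 14 of 32 and 0 of 32. The opposite strand of these CpG had 12 of 59 and 18 of 59 reads in the control and 6 of 36 and 6 of 35 after the fast, so it was not at 0. In Rarg, 15:102249591 had 14 of 34 and 0 of 50 reads, and its opposite strand 6 of 28 and 6 of 40. In Thrb, 14:18009593 had 13 of 13 and 0 of 16 reads, and its opposite strand no read in the control and 0 of 12 after the fast. In the flank of Nr3c1, 18:39408225 went the other way, with 0 of 12 and 13 of 13 reads, while 2 cytosines within 50 bp stood at 100% and 96.2%. The opposite strand of 18:39408225 had 0 of 11 reads in the control and no read after the fast. A count of 0 of 22 reads allows a level of up to 15.4%, and one of 0 of 50 up to 7.11%, by exact Clopper-Pearson intervals. With every read count halved, 1 of these 9 was still called, while the share over all cytosines fell from 0.082% to 0.00586%.

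Windows of 1000 bp gathered these cytosines and added groups that no single cytosine marked. Of 406 windows inside receptor spans 10 were called, or 2.46%, beside 2% of all windows. The 9 lower and the 1 higher stand beside 0.942% and 1.06% of all windows. They lay in 9 genes. In 5 of the windows, 1 each in Nr5a2, Rarg and Thrb and both in Rarb, a called cytosine took part. Without the called cytosines the remaining cytosines stood at 90.6% and 88.6% over 4 and at 83.5% and 95.6% over 3 in Rarb, at 84.3% and 81.3% over 3 in Thrb, at 34.2% and 25.2% over 5 in Rarg and at 31.1% and 23.3% over 12 in Nr5a2. The Rarb and Thrb windows thus rested on 1 or 2 cytosines each, while those of Rarg and Nr5a2 were lower at the other cytosines too.

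**Figure D4:**
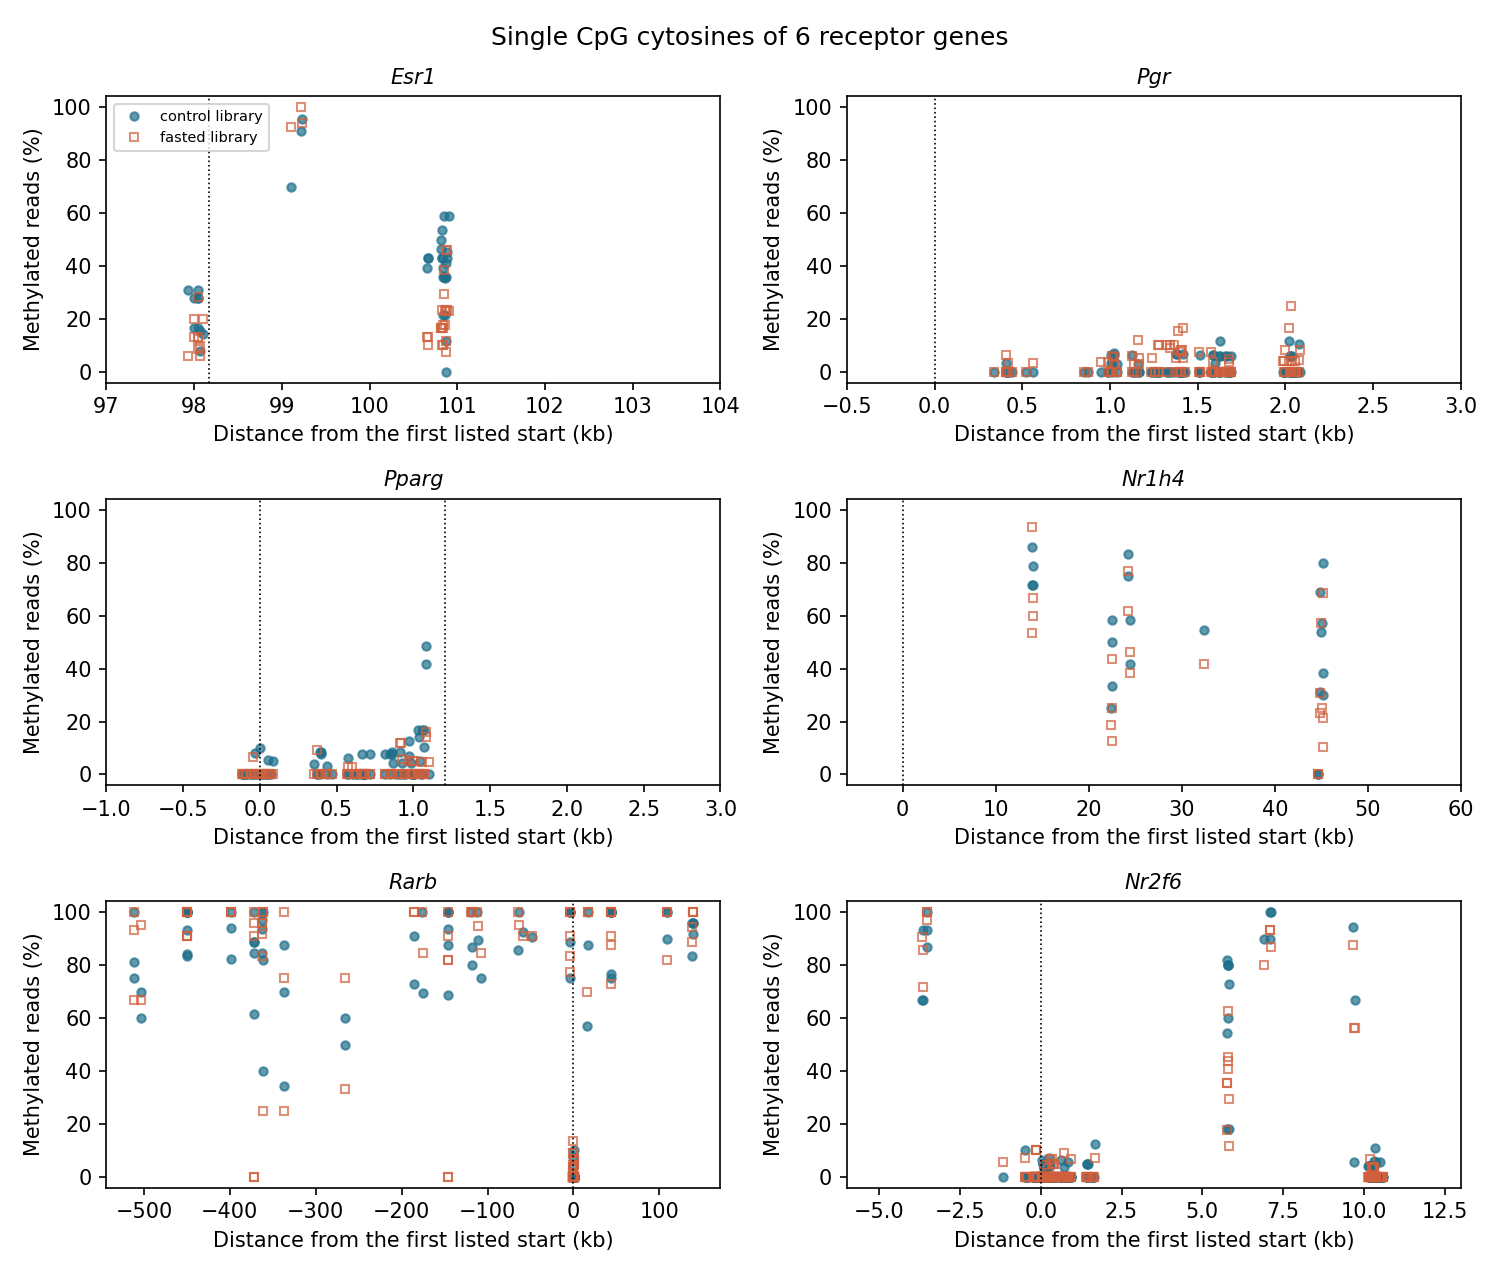
Methylated reads (percent, vertical axis) at single cytosines of 6 receptor genes against the distance from the first listed start (kb, horizontal axis), blue circles for the control and open orange squares for the fasted library, dotted lines for listed starts. Axes cover the stretch around the cytosines described and not always the whole gene. In the group of cytosines furthest to the right in the stretch shown of Esr1 most fasted squares lie below the control circles. In the group between 5 and 7 kb in Nr2f6 all of them do. Pgr stays near 0, and in Rarb a few squares sit at 0 beside neighbours near 100%.

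The Esr1 window held the most cytosines that moved together. At 10:4712001-4713000, inside the gene and 2342 bp after the second start, 22 cytosines averaged 38.4% in the control and 20.7% after the fast, with 19 lower and 3 higher. Summed reads were 223 of 589 and 118 of 599, exact intervals of 33.9 to 41.9% and 16.6 to 23.1%, and the adjusted p was 3.95e-09 by Fisher's exact test. No single cytosine of it was called, and the differences ran from -35.7 to 11.8 points. All 22 lie between 4712647 and 4712891, close enough to share fragments and reads. In Nr2f6 at 8:71376001-71377000, 9 cytosines averaged 60.6% and 35.7%, and all 9 were lower, with an adjusted p of 0.00293 by Fisher's exact test. Nr2f1 at 13:78194001-78195000 rested on 3 cytosines, 54.6% and 13.5%, and all 3 were lower. Rxra at 2:27748001-27749000 stood at 34.5% and 18.4% over 6 cytosines, 5 lower and 1 higher. The single higher window, Nr2c2 at 6:92121001-92122000, stood at 73.3% and 94.3% over 5 cytosines, of which 2 were higher, one by 77.5 points, and 2 lower.

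Most window calls were lost when reads were counted more strictly. With every read count halved, the Esr1 window and the Rarb window at 16721001 were still called and the other 8 were not. The share called over all windows fell from 2% to 0.371%. With summed reads divided by the number of cytosines none of the 10 was called, beside 0.00561% of all windows. With the window grid moved by 500 bp the Rxra difference was -4.64 points and was not called, and the other 9 were. At a minimum of 5 reads all 10 were still called. The difference was then smaller in Esr1, -11.2 points over 49 cytosines, in Nr2f6, -12.7 over 32, in Nr2c2, 11.7 over 9, and in Rxra, -13.6 over 12. In Nr2f1 it was -43.2 points over 4, and the windows of Nr5a2, Rarb, Thrb and Rarg were unchanged.

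**Figure D5:**
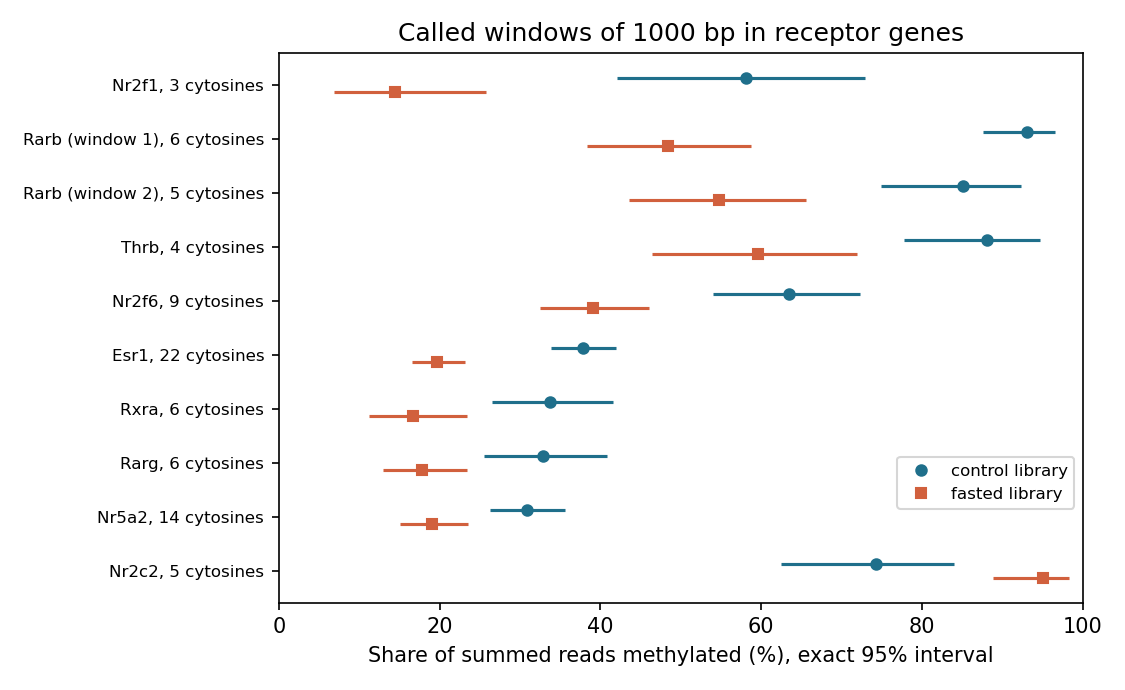
Share of summed reads that were methylated (percent, horizontal axis) in the 10 called windows of 1000 bp, with exact 95% intervals, blue circles for the control and orange squares for the fasted library; rows give the gene and its number of cytosines, and windows 1 and 2 of Rarb start at 16721001 and 16947001. In 9 windows the fasted library is lower and the intervals of the 2 libraries do not overlap, and in Nr2c2 it is higher.

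Of the co-regulators, which link receptors to chromatin and the transcription machinery, 21 of 23 starts or gene ends were measured and 0 were called, beside 1.26% of all genes, with a median of 0.505% in the control and 0.457% after the fast. The differences furthest from 0 were those of Nsd1, a histone methyltransferase, at a gene end of 66.7% and 67.8%, and of Tbl1xr1, a co-repressor subunit, at 0.560% and 1.53% over 142 cytosines, with 39 higher and 13 lower. Of 19 genes that make, carry or break down ligands, 7 were measured at the start and 0 called, beside the same 1.26%, and 5 of the 7 stood below 10% in the control. The vitamin D activating enzyme Cyp27b1 stood at 20.04% and 17.3% and the retinol carrier Rbp4 at 0.328% and 2.77%, with 11 higher and 1 lower of 25 cytosines and an adjusted p of 0.000323 by Fisher's exact test at under 10 points.

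Of 24 known liver targets of the receptors, 9 were measured at the start and 0 called, beside 1.26% of all genes. Pdk4, a kinase that spares glucose in fasting, stood at 0.620% in the control and 5.84% after the fast over 20 cytosines, 10 higher and 1 lower, with an adjusted p of 0.00666 by Fisher's exact test at under 10 points. Abcg8, a sterol exporter, stood at 53.3% and 48.1% over 5. Of 20 target spans measured, 1 was called, that of Slc10a1, the bile acid importer of hepatocytes, beside 1.37% of all spans. Its 26 cytosines averaged 56.5% in the control and 43.7% after the fast, with 21 lower and 4 higher and an adjusted p of 0.00162 by Fisher's exact test.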

How the data were processed

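Reduced representation bisulfite sequencing was done on 1 control and 1 fasted liver library, grouped by their titles. Per the submitters' processing notes, the build was mm10 and the tools included bcl2fastq 1.8.4 and Bismark 0.14.3. How reads were trimmed, duplicates handled and overlapping mates counted is not given in the sources used here. In the deposited files each line is a CpG cytosine of 1 strand, with its methylated and total reads and their percent as text. The score the authors deposited, the methylated fraction times 1000, lay within 0.5 of the value from the read counts. The files listed 4111027 cytosines for the control and 4110421 for the fasted library, with 49253627 and 51276705 reads summed over cytosines.

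Levels and tests used the read counts, on 19 autosomes, where both libraries had at least 10 reads, with strands apart. Regions needed 5 cytosines and windows of 1000 bp needed 3. Methylated and unmethylated reads were compared by Fisher's exact test, two-sided, and p-values were adjusted by Benjamini-Hochberg over all cytosines, genes or windows of the genome. A call needed an adjusted p under 0.05 and 25 points at a cytosine or 10 points between mean levels in a region. In a region the test used summed reads, while the mean level weighs each cytosine equally. For shares of reads the 95% Clopper-Pearson interval is given. For mean differences the interval takes reads as independent. Without molecular identifiers PCR copies cannot be told from molecules, so all intervals cover counting error only.

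Gene spans and promoter sequences came from RefSeq, GRCm38.p6, the same build as mm10. Start windows used the most upstream listed start, a choice made after the table was seen, and 4 receptors with none there used a gene end. The members, expression classes and gene lists were chosen with earlier results of these data known. The windows of 1000 bp, the classes of level and of distance, the runs of low cytosines and bodies without called cytosines were added after the data were seen. The text names every receptor, with full values for called ones, the 5 with the largest span difference in each direction, starts of at least 25%, up to 10 called cytosines, and from each list the called genes and the 2 with the largest start difference. Alternatives were coverage minimums of 5 and 20 reads, equal depth, merged strands, halved or divided reads, other windows and thresholds, and no flank. The tests were checked on simulated data. Python 3.11.15, numpy 2.4.6, pandas 2.3.3, scipy 1.17.1 and numba 0.67.0 were used.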

Additional observations from a re-analysis of the deposited data

How the results depend on the processing

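The counts of 0 called receptor starts, bodies and spans were 0 under every alternative run for them. The 9 called cytosines became 5 at a minimum of 20 reads, 16 with strands merged and 1 with every read count halved. The share called over all cytosines, 0.082%, became 0.143%, 0.18% and 0.00586% under the same settings. The 10 called windows became 2 with read counts halved and 0 with summed reads divided by the number of cytosines. The share over all windows, 2%, became 0.371% and 0.00561%. At a minimum of 20 reads 6 windows were called, beside 2.42% of all windows. Of the original 10 only 4 were still measured there, all 4 called, and the other calls lay in Nr5a1 and Pparg. Each of these settings changes how many cytosines or reads enter a test. Merging strands left 5015 CpG beside 6101 cytosines and sums the reads of both strands. The causes of the changed counts were not tested. The mean difference of -0.470 points became -0.221 at a minimum of 5 reads and turned to 0.187 with each read weighted equally. The distance of 2.45 points between silent and liver-expressed starts became 7.05 with a window of 2000 bp on each side. At a minimum of 20 reads the span differences of Nr1h2 and Nr2c1 turned to 0.924 and -0.845. The causes of these changes in level were not tested. Without its 4 called cytosines the Rarb body difference turned from -1.48 to 3.19 points, an alternative added after the data were seen. Of the other comparisons between libraries of single spans, bodies and windows, 75 kept their direction with no change of call and 19 kept their direction but lost the call. Part of this was fixed in advance. Dividing summed reads leaves the mean difference as it was, so direction could not change there. No span was called in the main setting, so none could lose a call, and bodies without called cytosines were set against no threshold. No paired analysis was possible because each group is 1 library and the labels carry no replicate numbers. A cytosine at the median of 18 and 19 reads can show only large differences, and starts with few CpG were often not read at all.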
